A study of Homo sapiens with 22 samples.

Results

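The integrin and laminin genes are the receptor and ligand sides of cell attachment to the basement membrane, and they were taken by symbol from the deposited gene tables. The rule keeps symbols of integrin alpha chains (ITGA with a number, 2B, V, X, M, L, E or D), integrin beta chains (ITGB1 to ITGB8) and laminin chains (LAMA, LAMB and LAMC with a number). It found 38 of the 25343 genes listed, of which 26 encode integrin chains (18 alpha and 8 beta) and 12 encode laminin chains (5 alpha, 4 beta and 3 gamma). No measured value entered the rule.

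Polyadenylated RNA was sequenced in 22 libraries of human renal cancer cell lines grown in RPMI with 10% FBS, in a study of enhancers in metastatic cancer. CRISPR interference (CRISPRi) carries a repressor to the DNA site that a guide RNA names, with a Cas9 that does not cut. The metastatic derivative of the line 786-O carries the same prefix in its label, followed by M1A, and is called M1A below. M1A cells carried the guide iMAE-1.1 in 4 libraries, the guide iMAE-1.2 in 4 and the guide iMAE-126 in 2, or a non-targeting guide (SC) in 6. Unmodified cells were OS-LM1, a metastatic line with a different parent (2 libraries), M1A (2) and 786-O (2). All 3 are labelled as renal cancer lines, their descent is known from earlier work, and the targets of the iMAE guides are not named. Each result thus describes 1 derivative of 1 line. Whether replicates were separate cultures is not labelled, and the p-values may then reflect technical spread alone.

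Integrins are cell surface receptors made of 1 alpha and 1 beta chain, and the pair decides what is bound. Alpha3beta1, alpha6beta1 and alpha6beta4 bind laminins, alpha5beta1 binds fibronectin, alpha1beta1 and alpha2beta1 bind collagens, and alphaV with beta1, beta3, beta5, beta6 or beta8 binds ligands that carry an RGD sequence, such as vitronectin, osteopontin and latent TGF-beta. Laminins are secreted trimers of 1 alpha, 1 beta and 1 gamma chain that lay down the basement membrane. Trimers with alpha3 and beta3 anchor epithelia, and trimers with alpha5 are common in the basement membranes of adult kidney.

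Libraries held between 9062605 and 52706490 expected counts. The CRISPRi libraries formed 2 sets that the labels do not name, by the mean length of the genes their reads came from. Set A is made up of SC replicates 1 and 2 with the iMAE-126 libraries (3528 to 3716 bases), and SC replicates 3 to 6 with the 8 libraries of the iMAE-1 guides form set B (3264 to 3395 bases). Within set A the iMAE-126 libraries (3528 and 3573 bases) lay below those of SC (3646 and 3716 bases). Among the unmodified lines the measure was 3617 and 3391 bases in OS-LM1, 3929 and 3982 bases in M1A and 3909 and 3915 bases in 786-O. The transcripts MIR6723 and MIR4461 took 1.75% to 17.3% of all TPM (transcript abundance, scaled to the same total in each library) in a library. TPM is therefore used for levels within libraries and across the unmodified lines, and normalised CPM (counts scaled to library size with TMM factors) for CRISPRi libraries. PAX8, the renal lineage regulator, was at 87.1 to 262 TPM in every group. CA9, a marker of clear cell carcinoma, was at 29.2 and 33.1 TPM in OS-LM1 and at most 0.23 TPM in every other library. The T cell gene CD3E and the platelet gene GP9 were at 0 in every library and PTPRC reached at most 0.7 TPM, while the 6 leukocyte markers summed to 19.4 to 95.7 TPM, nearly all of it CD68. The summed markers reached at most 1.61 TPM for endothelium (4 genes), 3.7 TPM for fibroblasts (4 genes) and 0.85 TPM for platelets (3 genes).

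A subunit was counted as measured where the mean of at least 1 group reached 1 TPM, and 24 of the 38 genes did. Of these, 8 encode integrin alpha chains, 8 integrin beta chains and the rest laminin chains. The laminin receptor chain ITGA3 led the alpha chains in each of the 7 groups, with group means of 221 to 465 TPM. ITGB1, the beta chain that most alpha chains pair with, led the beta chains with group means of 606 to 1375 TPM. It made up 75.0% to 85.1% of the summed TPM of the beta chains, as group means. Next to these stood the vitronectin receptor chain ITGB5 (64.9 to 224 TPM), the fibronectin receptor chain ITGA5 (43.9 to 175 TPM) and ITGAV (32.7 to 162 TPM). Among laminins, LAMB1 (127 to 173 TPM) and LAMC1 (43.4 to 143 TPM), which most laminin trimers contain, were the most abundant beta and gamma chains in most groups.

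The other 14 genes stayed below 1 TPM in the mean of every group. They include ITGA4, the alpha chain of the VCAM1 receptor, at a highest group mean of 0.74 TPM. ITGA2B, the platelet alpha chain, reached 0.44 TPM. ITGAL and ITGAM, alpha chains of leukocyte integrins, reached 0.55 and 0.68 TPM, and ITGAD reached 0.10 TPM. LAMC3 had at most 0.025 TPM, LAMB4 0.125 TPM, LAMA2, the alpha chain of muscle laminin, 0.28 TPM and LAMA1 0.62 TPM. The rest were ITGA7 (0.71 TPM), ITGA8 (0.27 TPM), ITGA9 (0.09 TPM), ITGA10 (0.66 TPM) and ITGA11 (0.08 TPM).

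**Figure D1:**
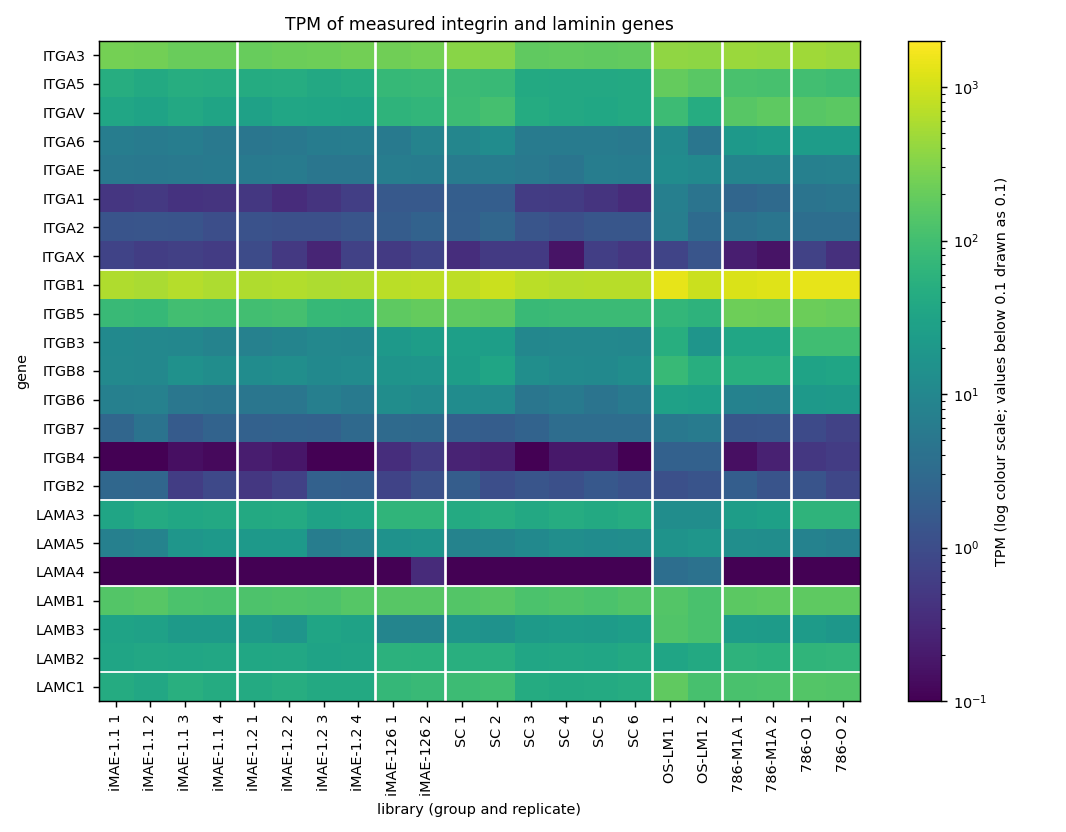
TPM (colour, log scale, values under 0.1 drawn as 0.1) of measured genes (rows, by chain type and highest group mean) in each of the 22 libraries (columns, by group). ITGB1 and ITGA3 are the brightest rows in every group, LAMA4 lies above 1 TPM in OS-LM1 alone, and LAMB3 is brighter in OS-LM1 than elsewhere.

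The first question is how the metastatic derivative M1A differs from its parent 786-O. Among integrins, transcripts of the alphaV partners beta3 and beta6 fell in M1A, as did ITGA1 and ITGB4, and those of the alphaV partner beta8 and of ITGB7 rose, while ITGAV, ITGB5 and ITGB1 did not pass the test. Among laminins, LAMA3 fell and LAMA5 rose. The edgeR test at an adjusted p under 0.05 called 4 of 34 tested subunits higher and 5 lower in M1A. Of all 16354 genes it called 31%, with 14.7% higher and 16.3% lower. The median log2 fold change of the tested subunits was 0.00, against −0.02 over all genes. ITGA9, ITGA11, ITGAD and LAMC3 had too few counts to be tested between the lines.

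ITGB3, the beta chain of the vitronectin and osteopontin receptor, had 35.3 and 34.6 TPM in M1A, against 94.9 and 96.1 TPM in 786-O. Both M1A libraries lay below both of 786-O, and the log2 fold change was −1.38 ± 0.38 (SE; edgeR adjusted p = 0.0298). ITGB6, which with alphaV activates latent TGF-beta in epithelia, had 8.15 and 7.67 TPM in M1A, against 20.1 and 21.9 TPM in 786-O. The groups did not overlap, and the log2 fold change was −1.34 ± 0.10 (adjusted p = 4.98e-05). ITGB8, another activator of latent TGF-beta, had 51.2 and 52.5 TPM in M1A, against 31.8 and 34.4 TPM in 786-O. It was higher in both M1A libraries, by 0.72 ± 0.18 (adjusted p = 0.0185). ITGB5 had 228 and 220 TPM in M1A and 214 and 197 TPM in 786-O, and neither it (0.20 ± 0.11) nor ITGAV (0.12 ± 0.25) passed the test.

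The collagen receptor chain ITGA1 had 2.59 and 3.02 TPM in M1A, against 4.49 and 4.81 TPM in 786-O, a fall that passed narrowly (−0.65 ± 0.21, adjusted p = 0.0498). Its own partner ITGB1 did not pass the test (−0.14 ± 0.17), nor did the laminin receptor chains ITGA3 (0.00 ± 0.10) and ITGA6 (0.00 ± 0.29). ITGB4, the hemidesmosome chain that pairs with alpha6, was low, at 0.15 and 0.25 TPM in M1A against 0.50 and 0.59 TPM in 786-O (−1.38 ± 0.30, adjusted p = 0.00948). ITGB7, a beta chain best known from lymphocytes, had 1.41 and 1.47 TPM in M1A, against 0.92 and 0.71 TPM in 786-O (0.89 ± 0.24, adjusted p = 0.0233). These last 2 lay near or below 1 TPM and did not overlap between the lines.

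LAMA3 had 25.3 and 27.4 TPM in M1A, against 63.4 TPM in each 786-O library. Its log2 fold change in counts was −1.17 ± 0.10 (adjusted p = 7.67e-05). LAMA5 had 13.6 and 13.0 TPM in M1A, against 7.93 and 7.26 TPM in 786-O, a rise of 0.88 ± 0.11 (adjusted p = 0.000630). LAMA3 thus gave 65.4% of the summed TPM of laminin alpha chains in M1A and 88.7% in 786-O, as group means. LAMA5 gave 33.0% in M1A and 10.6% in 786-O. LAMA1, at 0.42 and 0.47 TPM in M1A against 0.13 and 0.23 TPM in 786-O, was called higher too (1.35 ± 0.31, adjusted p = 0.0119). No laminin beta or gamma gene was called, LAMB3 among them (0.28 ± 0.13).

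ITGB6, LAMA3 and LAMA5 were called in every fit that left out 1 library. The calls of ITGA1, ITGB3, ITGB7 and ITGB8 were lost without any 1 of the 4 libraries compared, with adjusted p from 0.0584 to 0.250, and that of ITGB4 without M1A replicate 1 (0.0757) or 786-O replicate 2 (0.0725). LAMA1 lost its call without M1A replicate 2 (0.0658) or 786-O replicate 1 (0.0919). With limma on TPM the split was 1 higher and 6 lower. That split stands without the share of all genes called by limma and does not measure a lean to either side. The OS-LM1 libraries enter the estimate of the spread, and a fit of the 4 libraries alone called 23 of 30 tested subunits, 10 higher and 13 lower, beside 56.4% of all genes. It called LAMB3 (0.27), ITGA5 (0.29) and ITGB5 (0.19) higher and ITGB1, LAMB2 and LAMC1 (−0.15 each) lower, with edgeR adjusted p up to 0.0301. ITGA2, ITGAE and ITGB2 were called higher and ITGAX lower there as well. None of these passed in the fit of the 3 lines, so their results depend on whether OS-LM1 enters the fit.

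**Figure D2:**
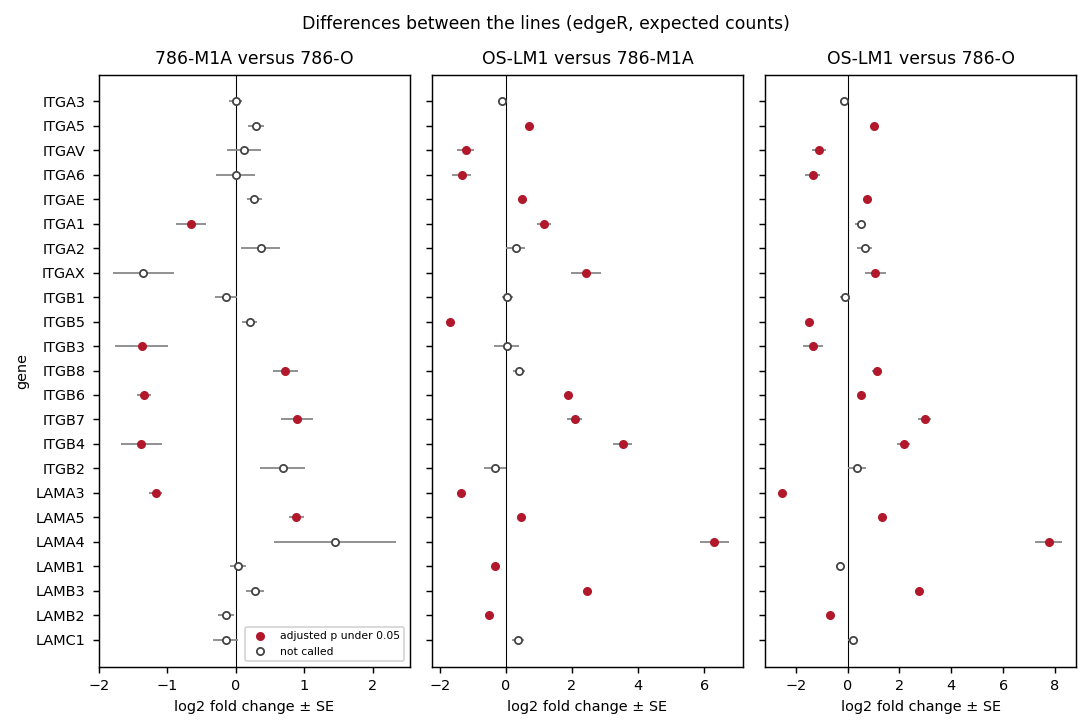
Log2 fold changes in counts with SE (horizontal axis) of measured genes (rows) for the 3 pairs of unmodified lines (named above each panel), with called genes filled. ITGB6 and LAMA3 lie left of 0 in the first panel, LAMB3, LAMA4 and ITGB4 right of 0 in the other 2.

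Genes that work with these subunits were read from 3 lists. Of 27 tested integrin adaptors, 15 rose and 1 fell in M1A, where 14.7% of all genes were higher and 16.3% lower. Their median log2 fold change was 0.51, against −0.02 over all genes. The paxillin relative TGFB1I1 (2.71 ± 0.15), the PINCH protein gene LIMS2 (2.83 ± 0.32), the actin linker TNS1 (1.18 ± 0.16) and the filamin FLNA (1.09 ± 0.15) rose. Of 17 ligands other than laminins, 6 rose and 3 fell, with a median of 0.22. Tenascin C (TNC, 2.65 ± 0.17) and CTGF (1.77 ± 0.15) rose, and osteopontin (SPP1, −2.49 ± 0.12) and MFGE8 (−1.30 ± 0.11), both RGD ligands of alphaV integrins, fell. Of 12 basement membrane partners and other laminin receptors (median 0.19), 3 rose, with the laminin-binding nidogen NID2 (1.36 ± 0.14) and the syndecan SDC1 (0.50 ± 0.12) among them, and BCAM, a receptor of laminin alpha5, fell (−3.16 ± 0.25).

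OS-LM1 was set beside M1A and 786-O as a second metastatic line. Its own parent is not among the libraries, so line of origin and metastatic state cannot be told apart in its comparisons. LAMB3, LAMA4, ITGB4, ITGB6 and ITGB7 were higher in OS-LM1 than in either other line, and ITGAV, ITGB5, ITGA6 and LAMA3 lower. Against M1A, 18 of 34 tested subunits were higher and 7 lower. Of all genes 68.7% were called there, 34.4% higher and 34.3% lower. Against 786-O, 16 subunits were higher and 7 lower, beside 63.6% of all genes, 30.4% higher and 33.3% lower. Of the higher subunits 7 and 5, in that order, lay under 1 TPM in every group. The medians were 0.62 and 0.71, against 0.04 and −0.01 over all genes. Both comparisons use the same 2 OS-LM1 libraries, so they are not independent of each other. The comparisons of OS-LM1 and of M1A with 786-O likewise share the 786-O libraries. For the subunits called in M1A, the log2 fold changes against 786-O, OS-LM1 before M1A, were −1.35 and −1.38 in ITGB3, −2.53 and −1.17 in LAMA3, 1.33 and 0.88 in LAMA5, 1.12 and 0.72 in ITGB8, 2.97 and 0.89 in ITGB7 and 1.91 and 1.35 in LAMA1. They were 2.16 and −1.38 in ITGB4, 0.53 and −1.34 in ITGB6 and 0.51 and −0.65 in ITGA1, of which the OS-LM1 value of ITGA1 did not pass the test.

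LAMB3, the beta chain of the epithelial anchoring trimer, had 138 and 116 TPM in OS-LM1, 24.1 and 23.3 TPM in M1A and 22.7 and 19.0 TPM in 786-O. Both OS-LM1 libraries lay above every library of the other lines. The log2 fold change was 2.46 ± 0.14 against M1A (adjusted p = 2.47e-06) and 2.74 ± 0.14 against 786-O (adjusted p = 1.82e-06). LAMA3, the alpha chain of the same trimer, went the other way, with 12.7 and 12.9 TPM in OS-LM1, 25.3 and 27.4 TPM in M1A and 63.4 TPM in each 786-O library. Its log2 fold change was −1.36 ± 0.10 against M1A (adjusted p = 1.00e-05) and −2.53 ± 0.10 against 786-O (adjusted p = 5.87e-07).

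The promoters of LAMA3 and LAMB3 are shown because transcripts of these partner chains differed in opposite directions between lines. RefSeq promoter windows (GRCh38.p14, 250 bases before to 50 after a transcription start) were at hand for 26 of the 38 genes, and capitals mark the AP-1 motif TGANTCA, which reads the same on both strands. ITGA3, ITGB3 and ITGB4 had no entry. LAMB3 has 3 starts in the table, of which the outermost and the innermost are printed. The LAMA3 window, at chr18:23872770-23873069 on the plus strand, holds the motif 125 and 69 bases before the start. LAMA3 has separate starts for a short and a long transcript, and which of them this window serves was not tested. The outermost LAMB3 window, at chr1:209652376-209652675 on the minus strand, holds none, and the innermost, at chr1:209651325-209651624 on the minus strand, holds it 67 bases before the start. The motif stands in 7.71% of the 35116 promoters of the table and in 3 of the 33 windows of these genes, those of LAMA3, LAMB3 and ITGA5. A match is a description of the letters and not a bound site.
LAMA3: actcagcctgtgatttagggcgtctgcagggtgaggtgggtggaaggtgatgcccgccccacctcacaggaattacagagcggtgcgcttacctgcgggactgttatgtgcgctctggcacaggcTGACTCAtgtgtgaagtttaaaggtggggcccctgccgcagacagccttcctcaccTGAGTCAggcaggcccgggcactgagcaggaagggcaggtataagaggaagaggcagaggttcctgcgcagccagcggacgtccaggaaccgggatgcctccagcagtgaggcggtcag
LAMB3 outermost start: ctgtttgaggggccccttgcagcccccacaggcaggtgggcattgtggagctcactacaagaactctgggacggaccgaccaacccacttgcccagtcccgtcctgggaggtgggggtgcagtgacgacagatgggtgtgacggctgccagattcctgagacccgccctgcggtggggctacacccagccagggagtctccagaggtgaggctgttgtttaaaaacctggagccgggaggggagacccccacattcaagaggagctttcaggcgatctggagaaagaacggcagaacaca
LAMB3 innermost start: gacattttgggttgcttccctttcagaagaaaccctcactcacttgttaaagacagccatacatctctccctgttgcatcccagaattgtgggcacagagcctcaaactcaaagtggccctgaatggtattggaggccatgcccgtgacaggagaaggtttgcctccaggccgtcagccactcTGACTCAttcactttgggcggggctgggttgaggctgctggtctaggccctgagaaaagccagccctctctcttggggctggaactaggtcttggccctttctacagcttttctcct

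LAMA4, the alpha chain of endothelial and mesenchymal laminins, had 3.63 and 4.23 TPM in OS-LM1, 0.02 and 0.06 TPM in M1A and 0 and 0.03 TPM in 786-O. Its summed counts were 499 in OS-LM1, 13.0 in M1A and 4.02 in 786-O, and the log2 fold changes of 6.31 ± 0.44 and 7.75 ± 0.52 rest on those few counts. The endothelial markers summed to 1.08 to 1.40 TPM in OS-LM1, 0.57 to 1.01 TPM in M1A and 0.36 to 0.53 TPM in 786-O, with CDH5 at 0 in all 3, and their part in LAMA4 was not tested. LAMA5 had 16.1 and 18.1 TPM in OS-LM1, 13.6 and 13.0 TPM in M1A and 7.93 and 7.26 TPM in 786-O. It rose by 0.45 ± 0.11 against M1A (adjusted p = 0.00601), a call lost without M1A replicate 2 (adjusted p = 0.0739), and by 1.33 ± 0.11 against 786-O (adjusted p = 2.53e-05). LAMA5 was the main alpha chain of OS-LM1, at 49.3% of summed laminin alpha TPM, with LAMA3 at 37.0% and LAMA4 at 11.3%. LAMB2, the beta chain of mature kidney and muscle laminins, fell by 0.52 and 0.66 on the log2 scale. LAMB1 fell against M1A by 0.32 (adjusted p = 0.0365), a call lost without any 1 library of M1A or 786-O (adjusted p 0.0824 to 0.175). LAMC1 did not pass either test.

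ITGB4 had 2.18 TPM in both OS-LM1 libraries, 0.15 and 0.25 TPM in M1A and 0.50 and 0.59 TPM in 786-O. It rose by 3.54 ± 0.29 (adjusted p = 1.86e-05) and 2.16 ± 0.26 (adjusted p = 0.000193). Its only partner, ITGA6, had 11.5 and 4.92 TPM in OS-LM1, 21.0 and 24.0 TPM in M1A and 23.5 and 24.1 TPM in 786-O. ITGA6 fell by 1.35 on the log2 scale in each comparison (SE 0.30 in each; adjusted p = 0.00431 and 0.00479), and the OS-LM1 libraries differed from each other by more than those of any other line. Of the laminin receptor chains, ITGA3 had 389 and 368 TPM in OS-LM1 and did not pass either test.

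ITGAV had 88.2 and 45.8 TPM in OS-LM1, 152 and 171 TPM in M1A and 150 and 163 TPM in 786-O. It fell by 1.22 (SE 0.26, adjusted p = 0.00303) against M1A and likewise against 786-O (adjusted p = 0.00564). ITGB5 had 69.9 and 60.0 TPM in OS-LM1, 228 and 220 TPM in M1A and 214 and 197 TPM in 786-O. The log2 fold changes were −1.70 ± 0.12 (adjusted p = 8.20e-06) and −1.50 ± 0.12 (adjusted p = 1.94e-05), with no overlap. As a group mean ITGB5 made up 4.94% of the summed beta chain TPM in OS-LM1, 14.9% in M1A and 11.9% in 786-O. ITGB6 had 28.5 and 27.1 TPM in OS-LM1 and rose against both lines, by 1.87 ± 0.10 (adjusted p = 2.40e-06) over M1A and 0.53 ± 0.10 (adjusted p = 0.00187) over 786-O. ITGB8 had 78.3 and 50.5 TPM in OS-LM1 and rose against 786-O (1.12 ± 0.18, adjusted p = 0.000972) but did not pass the test against M1A (0.40 ± 0.18). ITGB3 had 49.3 and 17.5 TPM in OS-LM1, on either side of M1A, and fell against 786-O (−1.35 ± 0.38, adjusted p = 0.0165). The OS-LM1 libraries differed widely in ITGB3, ITGAV and ITGA6, with the higher value in replicate 1 each time. Replicate 1 was also the OS-LM1 library with the greater mean gene length, and the part of that measure in these values was not tested.

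ITGA5 had 191 and 159 TPM in OS-LM1, 115 and 113 TPM in M1A and 101 and 93.5 TPM in 786-O, with log2 fold changes of 0.71 ± 0.12 (adjusted p = 0.000932) and 1.01 ± 0.12 (adjusted p = 0.000171). ITGA1 had 7.26 and 4.46 TPM in OS-LM1 and rose against M1A (1.16 ± 0.22, adjusted p = 0.00167). ITGB7 had 5.19 and 6.26 TPM in OS-LM1 and rose by 2.07 ± 0.22 and 2.97 ± 0.23. ITGAE, the epithelial homing partner of beta7 in lymphocytes, had 12.2 and 11.0 TPM in OS-LM1 and rose by 0.49 ± 0.11 and 0.76 ± 0.11. ITGAX, at 0.76 and 1.35 TPM in OS-LM1, was called in both (2.42 ± 0.44 and 1.07 ± 0.41), and its call against 786-O was lost without any of 4 libraries, OS-LM1 replicate 2 among them (adjusted p = 0.265). ITGA4 had 1 count in OS-LM1, 96.7 in M1A and 160 in 786-O. ITGA2, ITGB1 and ITGB2 passed neither test.

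**Figure D3:**
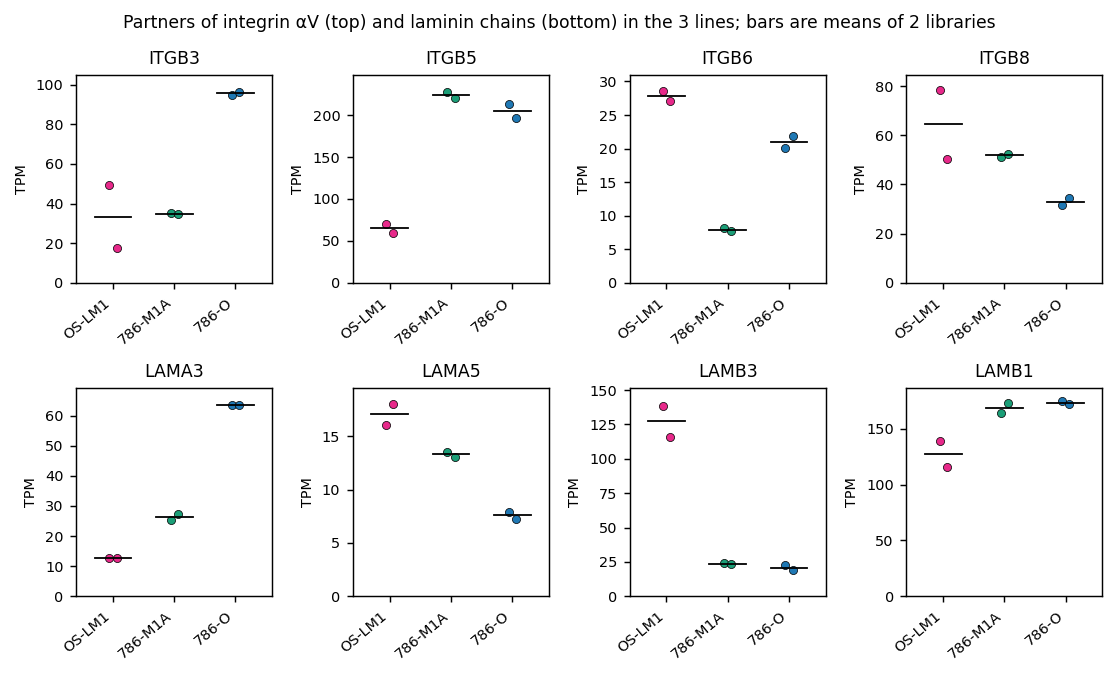
TPM per library (points; bars are means of 2 libraries) of 4 alphaV partners and 4 laminin chains in OS-LM1, M1A and 786-O. ITGB5 and LAMA3 are lowest and LAMB3 highest in both OS-LM1 libraries, ITGB3 is highest in 786-O, and the 2 OS-LM1 points of ITGB3 lie on either side of M1A.

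The working partners also differed. Of 27 adaptors, 3 rose and 16 fell in OS-LM1 against M1A, where 34.4% of all genes were higher and 34.3% lower. Their median was −0.57, against 0.04 over all genes. Against 786-O 12 adaptors rose and 10 fell, with a median of 0.12 against −0.01, where 30.4% of all genes were higher and 33.3% lower. PARVB, a parvin that links integrins to actin, fell in both comparisons, to 0.10 TPM in OS-LM1 against 44.2 TPM in M1A and 34.1 TPM in 786-O. Focal adhesion kinase (PTK2) fell by 1.67 and 1.51, and its relative PTK2B rose by 2.76 and 2.64. Of 12 basement membrane partners, 6 rose and 4 fell in each comparison (medians 0.29 and 0.37). The laminin-binding nidogen NID1 rose by 4.52 and 4.47, the laminin alpha5 receptor BCAM by 5.07 and 1.91 and the integrin-associated tetraspanin CD9 by 5.79 and 7.35. The other nidogen, NID2, fell by 4.21 and 2.85 on the log2 scale, and its level was 0.35 and 0.28 TPM in OS-LM1, 6.22 and 6.52 TPM in M1A and 2.44 and 2.77 TPM in 786-O. The perlecan gene HSPG2 and SDC1 fell in both comparisons, DAG1 fell against M1A and AGRN, the agrin gene, against 786-O. Of 17 other ligands, 8 rose and 4 fell against M1A and 11 rose and 3 fell against 786-O (medians 0.76 and 0.77), and L1CAM, an RGD-bearing adhesion molecule, rose by 4.13 and 4.36.

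Cells with the non-targeting guide were set against unmodified M1A to see which subunit levels go with the CRISPRi vector. Several abundant chains were lower in SC: the fibronectin, collagen and laminin receptor chains ITGA5, ITGA2, ITGA3 and ITGA6, ITGAV with its partners ITGB3, ITGB5 and ITGB8, and ITGB1. LAMA3 was higher. The test called 6 of 30 tested subunits higher and 12 lower in SC. Of these, ITGA8, ITGA10 and ITGAL among the higher and LAMA1 among the lower lay under 1 TPM in every group. Of 14769 genes it called 53%, with 27.8% higher and 25.3% lower. The median of the subunits was −0.24, against 0.07 over all genes. No library set holds both groups, and depth differs too (10458838 to 24366314 counts in SC, against 52706490 and 49301935 in M1A), so the vector and the library set cannot be told apart here.

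ITGAV had 304 and 363 CPM in the set A libraries of SC and 144 to 180 CPM in its set B libraries, against 495 and 551 CPM in M1A. All 6 SC libraries lay below both of M1A (−1.24 ± 0.33, adjusted p = 0.0145). ITGB8 had 111 and 145 CPM in set A and 57.1 to 69.0 CPM in set B of SC, against 210 and 214 CPM in M1A (−1.31 ± 0.33, adjusted p = 0.0112). ITGA6 had 27.2 and 33.9 CPM in set A and 18.0 to 21.0 CPM in set B, against 56.2 and 64.0 CPM in M1A (−1.34 ± 0.21, adjusted p = 0.00224). These 3 genes were lower in both sets, by different amounts. LAMA3, the one measured laminin gene that rose, had 162 and 173 CPM in set A and 154 to 178 CPM in set B of SC, against 109 and 115 CPM in M1A (0.60 ± 0.09, adjusted p = 0.00205). It was as high in set A as in set B. Further log2 fold changes were −1.18 in ITGA2, −0.68 in ITGA3, −0.84 in ITGA5, −0.43 in ITGB1, −0.96 in ITGB3, −0.75 in ITGB5 and −0.77 in LAMC1. ITGB7 and ITGAX, both at low levels, rose by 1.14 and 1.41.

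The count of called subunits was 3 without M1A replicate 2 and 5 without replicate 1. Of the measured subunits called, ITGA2, ITGA6 and LAMA3 were called in every fit that left out 1 library. ITGAV and ITGB8 lost their calls without either M1A library (adjusted p 0.0656 and 0.0989 for ITGAV, 0.0637 and 0.0772 for ITGB8). With SC replicates 1 and 2 alone 4 were higher and 15 lower, and with replicates 3 to 6 alone 8 were higher and 17 lower. With limma on TPM 2 were higher and 15 lower, while that scale put the median of all genes at −0.17. The share of all genes called in each of these fits is not given here, so the counts do not measure the size of a change. Of 27 adaptors, 3 rose and 15 fell in SC, where 27.8% of all genes were higher and 25.3% lower. Their median was −0.41, against 0.07 over all genes, with vinculin (VCL, −1.04 ± 0.18), FLNA (−1.05 ± 0.21) and TNS1 (−2.09 ± 0.45) among the falls. Of 12 basement membrane partners 3 rose and 4 fell (median −0.26), with the laminin receptor dystroglycan (DAG1) at −1.28. Of 16 other ligands 3 rose and 4 fell (median −0.09), with TGFBI at −1.45.

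The iMAE guides were compared with SC in a fit that holds the library set as a term. Under iMAE-126 the laminin receptor chains ITGA3 and ITGA6, ITGAV, its partner ITGB8 and the laminin chain LAMB3 fell, and LAMA3 rose. Of 30 tested subunits, 1 was higher and 6 lower. Of 15254 genes 16.7% were called, 6.31% higher and 10.4% lower. Under either iMAE-1 guide ITGA3 was the 1 subunit called, and it was higher. Of all genes 1.79% were called under iMAE-1.1 (0.911% higher, 0.878% lower) and 2.73% under iMAE-1.2 (1.39% higher, 1.34% lower). The 3 comparisons share the SC libraries. The median of the subunits was −0.04 under iMAE-126, 0.06 under iMAE-1.1 and 0.04 under iMAE-1.2, against 0.00 over all genes in each. Between the 2 iMAE-1 guides no subunit was called, and none had an unadjusted p under 0.05. In that comparison edgeR called 0% of all genes, and DESeq2 called 0 of these subunits. The libraries of each iMAE-1 guide split by replicate number, as described with LAMA5, and that split enters the spread of this test. Against the mean of the iMAE-1 guides, iMAE-126 had 1 subunit higher and 4 lower, beside 11.9% of all genes (4.42% higher, 7.44% lower).

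LAMA3 had 240 and 250 CPM under iMAE-126, against 162 and 173 CPM in the SC libraries of set A. Both iMAE-126 libraries lay above every other CRISPRi library, and the log2 fold change was 0.54 ± 0.14 (adjusted p = 0.0159). LAMB3 had 18.9 and 19.0 CPM under iMAE-126, against 35.2 and 31.6 CPM in SC of set A and 53.4 to 62.0 CPM in SC of set B. It fell by 0.83 (SE 0.23, adjusted p = 0.0259) and was lowest in the 2 iMAE-126 libraries of all 16. LAMA3 and LAMB3, partner chains of one epithelial trimer, thus moved in opposite directions, alpha3 up and beta3 down, while in OS-LM1 each had the opposite sign.

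ITGA3 had 600 and 642 CPM under iMAE-126, against 853 and 808 CPM in SC of set A (−0.43 ± 0.09, adjusted p = 0.00457). In set B it had 618 to 741 CPM under iMAE-1.1 and 608 to 724 CPM under iMAE-1.2, against 523 to 559 CPM in SC. Each of the 8 iMAE-1 libraries lay above the SC libraries of its set, with log2 fold changes of 0.33 ± 0.06 (adjusted p = 0.00956) and 0.31 ± 0.06 (adjusted p = 0.0112). Without library set in the fit these were 0.09 and 0.07 and were not called, and that of iMAE-1.2 was lost without its replicate 4 (adjusted p = 0.0537). ITGAV had 222 and 237 CPM under iMAE-126, against 304 and 363 CPM in SC of set A (−0.55 ± 0.11, adjusted p = 0.00392). ITGB8 had 75.3 and 77.2 CPM under iMAE-126, against 111 and 145 CPM (−0.75 ± 0.17, adjusted p = 0.00772). ITGA6 had 16.9 and 23.8 CPM under iMAE-126, against 27.2 and 33.9 CPM (−0.58 ± 0.16, adjusted p = 0.0192). In these 4 genes both iMAE-126 libraries lay below both SC libraries of their set. All 4 were also lower in SC of set B, which has the shorter mean gene length, than in SC of set A, and the iMAE-126 libraries lay between in that length. LAMB3 was higher in SC of set B than of set A, and LAMA3 was similar in both. The part of this measure in the iMAE-126 values was not tested.

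These iMAE-126 values rest on 2 SC libraries of the same set. The counts that follow stand without the share of all genes called in each fit and do not measure the size of a change. The count of called subunits was 1 without SC replicate 2 or without iMAE-126 replicate 1, and 3 without library set in the fit, where ITGAV was at 0.053. LAMA3 and LAMB3 lost their calls without any 1 of the 4 set A libraries (adjusted p 0.0642 to 0.0935 for LAMA3 and 0.0822 to 0.122 for LAMB3). ITGA6, ITGAV and ITGB8 lost theirs without SC replicate 2 (0.204, 0.0778 and 0.104) or iMAE-126 replicate 1 (0.226, 0.0534 and 0.0608). ITGA3 lost its call without iMAE-126 replicate 1 (0.0656).

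**Figure D4:**
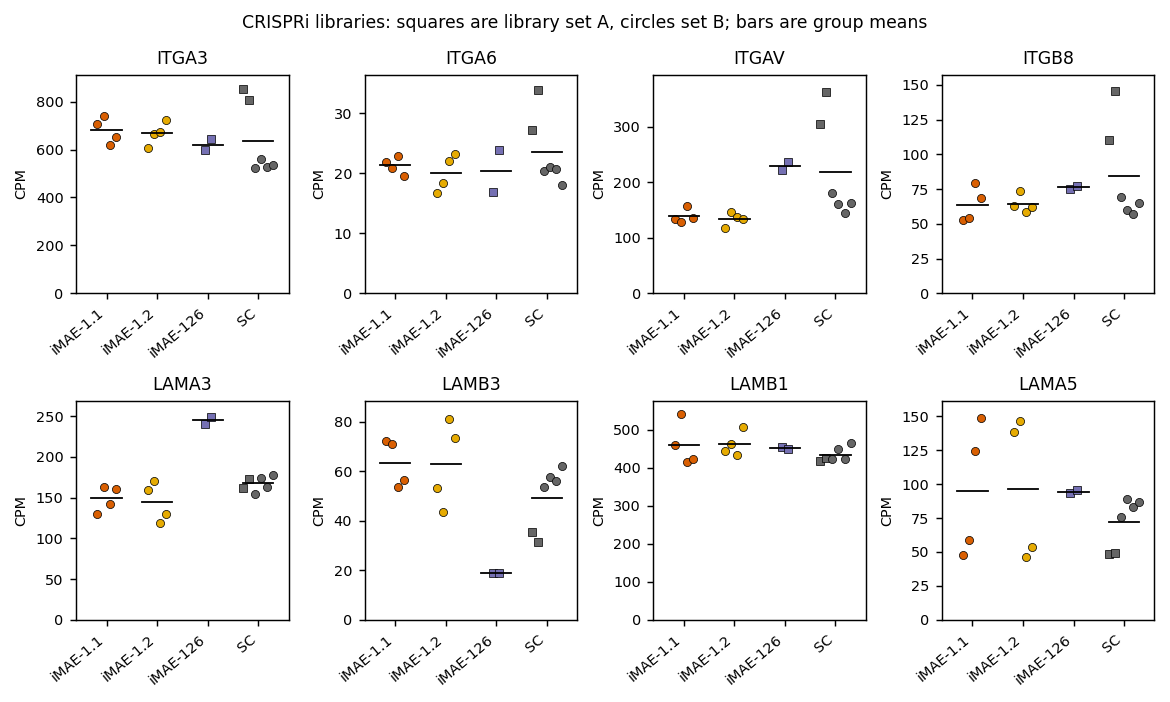
CPM per library (points; bars are group means) of 8 genes under iMAE-1.1, iMAE-1.2, iMAE-126 and in SC, with set A as squares and set B as circles. LAMA3 is highest and LAMB3 lowest in both iMAE-126 libraries, and the SC squares lie above the SC circles for ITGA3, ITGA6, ITGAV and ITGB8.

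LAMA5 split the iMAE-1 libraries by replicate number. It had 47.9 and 59.0 CPM in iMAE-1.1 replicates 1 and 2 and 124 and 149 CPM in replicates 3 and 4. In iMAE-1.2 the order was reversed, with 139 and 146 CPM in replicates 1 and 2 and 45.9 and 53.6 CPM in replicates 3 and 4. SC lay between in set B, at 75.6 to 88.9 CPM. Neither guide passed the test against SC (0.19 ± 0.43 and 0.20 ± 0.43). Under iMAE-126 it had 93.3 and 95.6 CPM, against 48.8 and 49.3 CPM in SC of set A, a log2 fold change of 0.94 ± 0.61 that did not pass the test (adjusted p = 0.326). In a fit of set A alone, where the spread of the iMAE-1 libraries does not enter, it was 0.95 ± 0.08 (adjusted p = 5.15e-07). LAMB3 split the other way in the same libraries, with 72.2 and 70.9 CPM in iMAE-1.1 replicates 1 and 2 and 53.4 and 56.5 CPM in replicates 3 and 4. In iMAE-1.2 it had 53.3 and 43.6 CPM in replicates 1 and 2 and 81.0 and 73.3 CPM in replicates 3 and 4. The split was seen in other subunits too, and these were chosen after their values were seen. ITGB5 had 159 and 151 CPM in iMAE-1.1 replicates 1 and 2 and 197 and 198 CPM in replicates 3 and 4. In iMAE-1.2 it had 195 and 219 CPM in replicates 1 and 2 and 150 and 145 CPM in replicates 3 and 4. ITGB2, the beta chain of leukocyte integrins, had 4.55 and 4.52 CPM in iMAE-1.1 replicates 1 and 2 and 1.02 and 1.62 CPM in replicates 3 and 4. In iMAE-1.2 it had 0.86 and 1.21 CPM in replicates 1 and 2 and 3.69 and 3.57 CPM in replicates 3 and 4. Replicates 1 and 2 of each iMAE-1 guide thus lay with replicates 3 and 4 of the other in these 4 genes. ITGA3, the subunit called under both guides, split in the direction of LAMB3. It had 248 and 245 TPM in iMAE-1.1 replicates 1 and 2 and 207 and 210 TPM in replicates 3 and 4. In iMAE-1.2 it had 204 and 214 TPM in replicates 1 and 2 and 226 and 240 TPM in replicates 3 and 4. The guides are taken as labelled, whether each of these 8 libraries carries the guide of its label was not tested, and every value given for 1 iMAE-1 guide has this limit.

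Under iMAE-126, of 27 adaptors none rose and 10 fell, where 6.31% of all genes were higher and 10.4% lower. Their median was −0.23, against 0.00 over all genes, with FLNA (−0.59 ± 0.08), TLN2 (−0.57 ± 0.16), PARVA (−0.46 ± 0.09) and ZYX (−0.36 ± 0.10) among the falls. FLNA, TLN2 and PARVA were also lower in SC of set B than of set A, and ZYX was higher there. Of 16 other ligands 1 rose and 5 fell: SPP1 rose by 1.02 ± 0.25, and thrombospondin 1 (THBS1, −1.17 ± 0.16), CTGF (−1.16 ± 0.11) and TNC (−0.85 ± 0.08) were among the falls. THBS1 had 381 and 421 CPM under iMAE-126, 919 and 871 CPM in SC of set A and 390 to 425 CPM in SC of set B. SPP1 was also lower in SC of set B than of set A, CTGF was higher there and TNC was similar in both. The part of library set in these values was not tested. Of 12 basement membrane partners 3 fell, with the heparan sulfate carrier SDC4 at −0.45 ± 0.10. Under the iMAE-1 guides the focal adhesion adaptor PXN was the one adaptor called (0.31 ± 0.07 and 0.36 ± 0.07), and MFGE8 fell under both (−0.38 ± 0.09 and −0.35 ± 0.09).

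LAMA3 makes a short and a long transcript from separate starts, and the table lists 4 transcripts for the gene. The mean LAMA3 transcript length that RSEM estimated was 9270 and 8974 bases in M1A and 8938 and 9009 bases in 786-O. It was 6995 and 6745 bases in OS-LM1. Among CRISPRi libraries it was 7050 and 7475 bases under iMAE-126, and 6427 to 6703 bases under iMAE-1.1. Under iMAE-1.2 it was 6380 to 6662 bases, and in SC it was 7476 to 7549 bases in set A and 6521 to 6717 bases in set B. The 4 libraries of M1A and 786-O lay above all others, while M1A and 786-O differed in LAMA3 counts and not visibly in length. The mean length moved with the library set in SC, so differences between SC and M1A in this measure cannot be told apart from it. OS-LM1 also had the shortest mean gene length of the unmodified lines over all genes, and the part of that in its LAMA3 length was not tested.

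**Figure D5:**
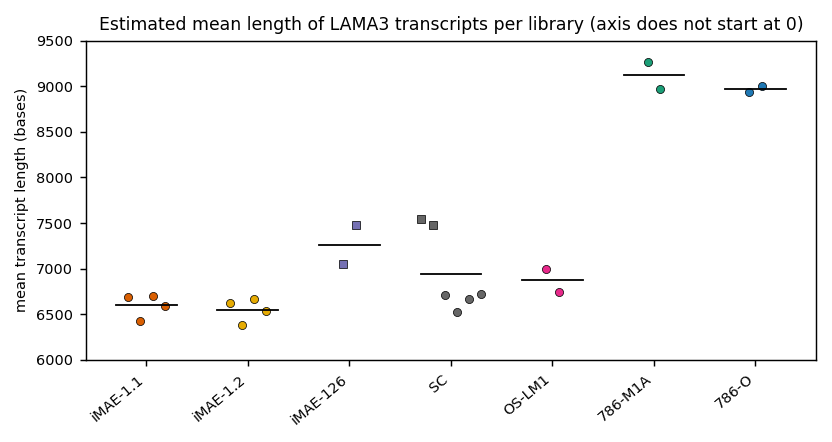
Mean LAMA3 transcript length estimated by RSEM (bases; the vertical axis does not start at 0) in each of the 22 libraries by group, with set A CRISPRi libraries as squares and bars for group means. The 4 libraries of M1A and 786-O lie between 8938 and 9270 bases, above all others.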

How the data were processed

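Stranded poly(A) libraries were made with a KAPA kit, per the labels' protocols. Bowtie2, RSEM and the build hg19 stand in the submitters' processing notes. The strand setting of the count is not known, so reads of antisense genes may be included. The deposited expected count is the authors' RSEM estimate of reads per gene, per the file headers. The deposited TPM is the authors' RSEM value per transcript length, per the file headers, and the same tables give the mean transcript length.

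Rounded expected counts of all genes were tested with edgeR 4.0.16 (R 4.3.3): TMM factors, a minimum count of 10 in filterByExpr, the quasi-likelihood test in its robust form, and Benjamini-Hochberg adjustment over all genes tested, with calls at an adjusted p under 0.05. The lines (6 libraries), SC with M1A (8) and the CRISPRi libraries (16, with library set as a term, split at the widest gap in mean gene length) were fitted apart. CPM used TMM factors over all 22 libraries. Subunits with a group mean of at least 1 TPM were named, except where an item is not reported here. From each partner list up to 4 called genes with the largest absolute fold change and a group mean of at least 5 TPM were named. The members, lists and tests were chosen with earlier results of these data known. Alternatives were DESeq2 1.42.0, limma 3.58.1 on log2(TPM + 1), RLE factors, other filters and thresholds, a replicate block, subsets of libraries and each library left out. The test of iMAE-126 against the mean of the iMAE-1 guides and the crossed block were added after seeing the data. The method was tested on simulated data. False calls ranged from 3 of 151 between the iMAE-1 guides to 17 of 161 in M1A versus 786-O. Their share was above the nominal 0.05 in every comparison except iMAE-1.2 versus SC and iMAE-1.2 versus iMAE-1.1. It was 17 of 162 in iMAE-1.1 versus SC and 14 of 141 in OS-LM1 versus M1A. Calls with an adjusted p just under 0.05 are thus less sure than that threshold states. Of simulated 1.5-fold changes, 11.9% were recovered in SC versus M1A, 32.8% under iMAE-126 and at most 58.2%, under iMAE-1.2. Figures used matplotlib 3.10.9.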

Additional observations from a re-analysis of the deposited data

Results flagged for a closer look

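The change under iMAE-126 was set against the mean change under iMAE-1.1 and iMAE-1.2 in the fit with library set, a test chosen after seeing the data. Of 30 tested subunits 1 was higher and 4 lower, where edgeR called 11.9% of all genes. These 5 differences between guides passed the edgeR test at an adjusted p under 0.05. ITGA3 differed by −0.7502 on the log2 scale (adjusted p = 0.000328) and LAMA3 by 0.7332 (adjusted p = 0.00966), and both were called in every fit that left out 1 library. LAMB3 differed by −0.9581 (adjusted p = 0.0335), ITGB8 by −0.7796 (adjusted p = 0.0201) and ITGA6 by −0.6171 (adjusted p = 0.0404). Each of these 3 lost its call in some fits that left out 1 library, with adjusted p up to 0.118 for LAMB3, 0.140 for ITGB8 and 0.243 for ITGA6. All iMAE-126 libraries lie in set A and all iMAE-1 libraries in set B, so the comparison rests on the SC libraries of both sets. No library stood out by Dixon's test in the 72 groups of values tested, which are those of SC, iMAE-1.1 and iMAE-1.2. Groups of 2 libraries, OS-LM1 among them, were not tested, and a split of 2 libraries against 2, as in LAMA5, cannot be found by it.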

How the results depend on the processing

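Leaving out 1 library gave 20 to 28 called subunits in OS-LM1 versus M1A, 21 to 28 against 786-O, 4 to 23 in M1A versus 786-O, 3 to 19 in SC versus M1A, 1 to 2 under iMAE-1.1, 0 to 2 under iMAE-1.2, 1 to 7 under iMAE-126 and 0 between the iMAE-1 guides. At an adjusted p under 0.01 the counts were 5 in SC versus M1A, 4 in M1A versus 786-O, 0 under iMAE-1.2 and 4 under iMAE-126. With the compared groups alone they were 23 in M1A versus 786-O and 2 under iMAE-1.2. DESeq2 called 2 under iMAE-1.1 and 3 under iMAE-1.2, and limma on TPM 0 under iMAE-1.2. Without library set in the fit 0 were called under either iMAE-1 guide and 3 under iMAE-126. Same-numbered libraries did not deviate together (correlations of −0.41 to 0.14 between groups), so the numbers were not taken to pair samples. Between the iMAE-1 guides same-numbered libraries correlated at −0.41 to −0.23, and each iMAE-1.1 library correlated best with a different number of iMAE-1.2 (0.27 to 0.46). With the replicate number as a block 0 subunits were called under either iMAE-1 guide, 6 under iMAE-126, 24 in OS-LM1 versus M1A, 23 against 786-O, 8 in M1A versus 786-O and 20 in SC versus M1A. With the OS-LM1 numbers crossed, an alternative chosen after seeing the data, the block gave 25 in OS-LM1 versus M1A. The counts of this paragraph stand without the share of all genes called in each fit and do not measure the size of a change.

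Leaving out 1 library moved ITGA2 between −0.39 and 0.73, ITGB1 between −0.28 and 0.29 and ITGB3 between −0.91 and 0.58 in OS-LM1 versus M1A. It moved ITGB1 between −0.42 and 0.14 and LAMC1 between −0.15 and 0.49 in OS-LM1 versus 786-O. In each of these the ends are the fits without OS-LM1 replicate 1 or 2. In SC versus M1A, ITGB6 turned to −0.30 with SC replicates 3 to 6 alone, and LAMA5 and LAMB3 turned to −0.52 and −0.46 with SC replicates 1 and 2 alone and also with the replicate block. ITGAV under iMAE-126 turned to 0.053 without library set. The cause was not tested. Few counts limit the genes under 1 TPM.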
